A study of Homo sapiens with 12 samples.

Results

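The genes described here encode the core machinery of macroautophagy and its cargo receptors, 43 genes taken by symbol from the 60580 rows of each count file. They were measured by RNA-Seq in HCT116, an established colorectal cancer cell line with functional p53, 48 h after addition of 5-FU (4 µM in the study's text) or of DMSO as control. WT cells, which in the study's methods were clones obtained with Cas9 vector without guide RNA, were compared with miR-34a/b/c-KO cells (KO), clones from which the regions encoding the mature miRNAs miR-34a and miR-34b/c had been deleted. Each of the 4 states was labelled with 3 replicates, which the study's text calls biological. Neither labels nor methods say whether these are different clones, so that p-values measure only the spread between these libraries. The library labelled WT 5-FU replicate 1 held the counts of WT DMSO replicate 3 in each of the 60580 rows. It was left out, so that WT 5-FU is represented by 2 of the 11 libraries used.

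In macroautophagy, the ULK1 kinase complex and the class III PI3-kinase complex start a membrane sac, the phagophore, that is fed by ATG9 vesicles and by lipid transfer through ATG2. WIPI proteins read the phosphatidylinositol 3-phosphate on this membrane and recruit the ATG12-ATG5-ATG16 conjugate, which helps to couple ATG8 proteins, the LC3 and GABARAP families, to lipid. Receptors such as p62, encoded by SQSTM1, tether cargo to the ATG8 proteins, and the closed autophagosome fuses with the lysosome. The family miR-34 is induced by p53 and represses mRNAs that pair with its seed, bases 2 to 8 of the miRNA.

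The mature sequences of the deleted miRNAs are shown because their loss is what separates the genotypes compared. They are the RefSeq entries for GRCh38.p14, with the seed in capitals, and an entry for miR-34c-5p was not used here.
hsa-miR-34a-5p: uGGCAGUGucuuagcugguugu
hsa-miR-34b-5p: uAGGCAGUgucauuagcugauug
The sites that pair with the seed of miR-34a (CACTGCC, searched on the transcribed strand only, a 7mer-m8 site, or 8mer where an A follows) were found in the principal 3' UTR of 8 of the 42 genes tested below. In the GENCODE release 44 transcripts used (GRCh38), these 30-base windows hold them, with the site in capitals, and ATG9A, on which the study's experiments centre, is added with its only match, a shorter site, ACTGCCA (7mer-A1).
ULK1, 3' UTR, chr12:131921691-131921697, plus strand: gggcctgagacCACTGCCgactcaaagcca
ATG13, 3' UTR, chr11:46673620-46673626, plus strand: caggttctctaCACTGCCctggggtttacc
ATG2A, 3' UTR, chr11:64894749-64894755, minus strand: gggagaaaggaCACTGCCcctcccccgacc
ATG2B, 3' UTR, chr14:96282034-96282040, minus strand: catgctaggcaCACTGCCcccttgaataga
WIPI2, 3' UTR, chr7:5233241-5233247, plus strand: gttgcccatttCACTGCCaccagctcctct
ATG5, 3' UTR, chr6:106186338-106186344, minus strand: ctgctttcctcCACTGCCatcattaaacct
CALCOCO2, 3' UTR, chr17:48863352-48863358, plus strand: ccaagttgtccCACTGCCattcaaagtcag
TFEB, 3' UTR, chr6:41684038-41684044, minus strand: gcgggaggggtCACTGCCggaagagcagct
ATG9A, 3' UTR, chr2:219220155-219220161, minus strand: ccagccccagtACTGCCAcctttacaccta
The coordinates are those of the 7 capital letters, and the sequence is that of the mRNA written as DNA. The seed match of miR-34a was present in 19.0% of the 42 genes and in 17.6% of the 12971 tested genes of the whole table with such a 3' UTR. Among 3' UTRs of middle length (medians of 1276 and 1085 bases) the order was the other way, with 10.5% of 19 genes against 15.4% of 5205. The letters that pair with the seed of miR-34b (ACTGCCT) were found in 5 of the 42 3' UTRs, those of ATG13, ATG7, ATG12, NBR1 and LAMP2, 11.9% against 15.9% of all.

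Total counts per library ranged from 22831415 to 39064210, and the biological coefficient of variation common to all genes was 6.72%. The precursor genes MIR34A, MIR34B and MIR34C had 0 counts in all 11 libraries, WT included, so that the deletion could not be read from them. MIR34AHG, the host transcript of miR-34a, had means of 4.84 and 22.2 CPM in WT and KO DMSO and of 16.2 and 64.6 CPM in WT and KO 5-FU. CDKN1A, the p53-induced CDK inhibitor gene used as check of the treatment, stood at 167 to 2078 CPM in WT and 469 to 2481 CPM in KO cells from DMSO to 5-FU (group means). MDM2, the other check of the treatment, went from 141 to 1119 CPM in WT and from 192 to 811 CPM in KO cells. Under 5-FU its mean was thus lower in KO than in WT cells, unlike that of CDKN1A. Of 8 colorectal epithelial markers, 7 reached 20 counts and CDX1 had 0 counts in every library, and their summed level was 8560 to 12190 CPM under 5-FU and 5269 to 5669 CPM in DMSO. KRT8, KRT18 and KRT19 made up most of this sum. EPCAM went the other way, from means of 432 to 331 CPM in WT and 420.2 to 301 CPM in KO cells, and CDX2 lay between 20.4 and 23.7 CPM in all states. All libraries were of the HCT116 cell line. Of the 4 fibroblast markers only COL1A1 reached 20 counts. The 4 summed to between 21.8 and 26.8 CPM in WT DMSO and between 46.1 and 70.7 CPM in the other states. The 4 immune markers summed to at most 2.6 CPM (only LYZ reached 20 counts). The 3 endothelial markers summed to at most 6.43 CPM (only VWF reached 20 counts). The part of these differences in the results was not tested, and in bulk RNA fewer cells of a type and less RNA per cell cannot be told apart.

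Of the 43 genes, 42 reached 20 counts in at least 1 library and were tested. Values per library are CPM, the counts relative to upper-quartile scaled totals. Differences are log2 fold changes of edgeR with their standard error (SE), and FDR is the Benjamini-Hochberg adjusted p over 16123 genes. A gene is called higher or lower at FDR < 0.05. MAP1LC3A, which encodes an LC3 protein, had between 0 and 7 counts per library, at most 0.292 CPM, and was not tested. Per kilobase of exon in GENCODE release 44, the highest mean levels in WT DMSO were those of GABARAP (60.2 CPM per kilobase), WDR45B (46.9), LAMP1 (42.6) and SQSTM1 (41.8). The lowest among the tested genes were those of ATG2B (0.643), TFEB (0.836) and ATG10 (1.67 CPM per kilobase). In KO cells under 5-FU the order at the top was LAMP1 (79.1), SQSTM1 (72.9), GABARAP (64.2) and WDR45B (38.8 CPM per kilobase). These levels divide by the length of all annotated exons, also those a transcript of these cells may not use.

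**Figure D1:**
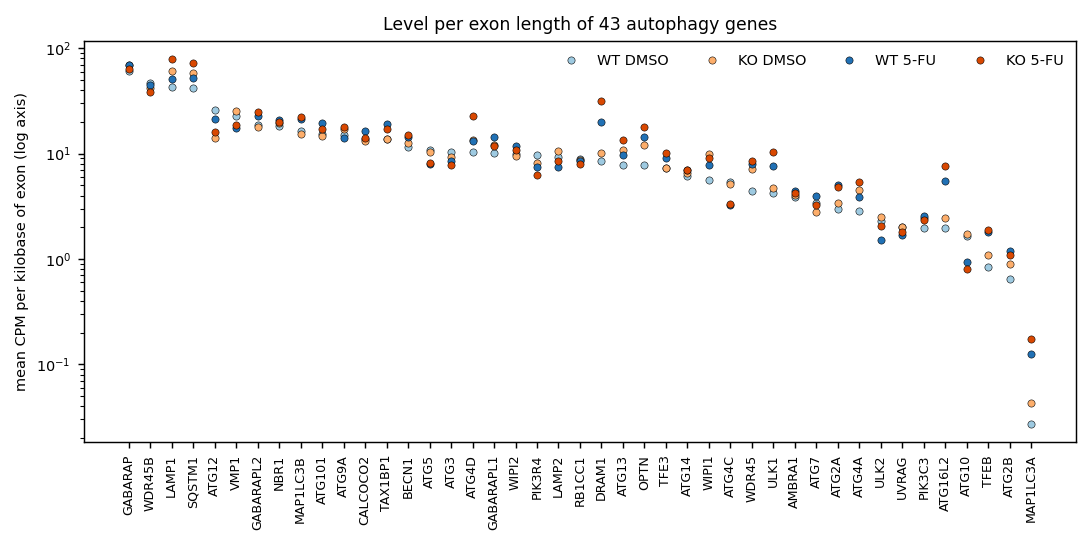
Mean level of each of the 43 genes in CPM per kilobase of annotated exon, on a log axis, in order of the level in WT DMSO, with 1 point for each of the 4 states. GABARAP is at 60.2 and MAP1LC3A at 0.0272 in WT DMSO.

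Most of these genes changed by less than 1.5-fold, in both directions. In DMSO, 19 of 42 were higher and 5 lower in KO than in WT cells, against 24.5% and 21.9% of all genes tested, and past 1.5-fold 4 were higher and 1 lower (all genes 9.1% and 4.97%). Under 5-FU, 12 were higher and 7 lower in KO cells (all genes 21.6% and 28%), of which 3 and 0 passed 1.5-fold (all genes 7.58% and 10.6%). The median log2 fold change, KO over WT, was 0.13 in DMSO and 0.035 under 5-FU, against 0.026 and -0.046 over all genes. No gene that was lower in KO cells in DMSO was higher under 5-FU, and 10 were higher under both conditions (ATG9A, SQSTM1, OPTN, ATG13, ATG16L2, DRAM1, LAMP1, ATG4D, ATG4A and LAMP2). A further 4 were lower under both (ATG7, PIK3R4, ATG12 and WDR45B), GABARAPL1 was higher in DMSO and lower under 5-FU, and 14 passed neither test. The shares of all genes with the same joint calls were not counted, so these joint counts cannot be read as a trait of the 42 genes.

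After 5-FU, 28 of the 42 genes were higher and 10 lower in WT cells (all genes 31.9% and 28.3%), 8 and 3 of them past 1.5-fold (all genes 18.5% and 9.38%). In KO cells 22 were higher and 9 lower (all genes 26.6% and 33.8%), 5 and 2 of them past 1.5-fold (all genes 13.3% and 12%). The median log2 fold change was 0.28 in WT and 0.19 in KO cells, against 0.034 and -0.059 over all genes. In both genotypes 21 genes were higher and 8 lower, and ATG12 was lower in WT and higher in KO cells. For these joint calls, too, the shares over all genes were not counted. Called higher in WT cells without a call in KO cells were AMBRA1, GABARAPL1, GABARAP, NBR1, CALCOCO2, WIPI1 and PIK3C3, and neither genotype gave a call for ATG9A, RB1CC1 and ATG14.

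The difference between the responses, log2 fold change after 5-FU in KO minus that in WT cells (the interaction), was positive at FDR < 0.05 for 3 genes and negative for 7 (all genes 10.1% and 16%). Past 1.5-fold were 0 and 2 genes (all genes 3.42% and 6.66%). An unadjusted edgeR p under 0.05 was found for 13 of the 42, against 6203 of all 16123 genes. The counts at FDR < 0.05 depended on the scaling and on WT 5-FU replicate 2, without which a single library is left in that state. With TMM factors 6 were positive and 7 negative, and with DESeq2 7 and 7. Over all genes the counts moved from 1622 positive and 2585 negative to 2092 and 1966 with TMM factors and to 2321 and 1688 with DESeq2. The comparisons share libraries and are therefore not independent of each other. The 2 WT 5-FU libraries differed most from each other: 24 of the 42 genes had their highest coefficient of variation in this state, with a median of 7.01% against 2.91% to 4.13% in the other states.

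**Figure D2:**
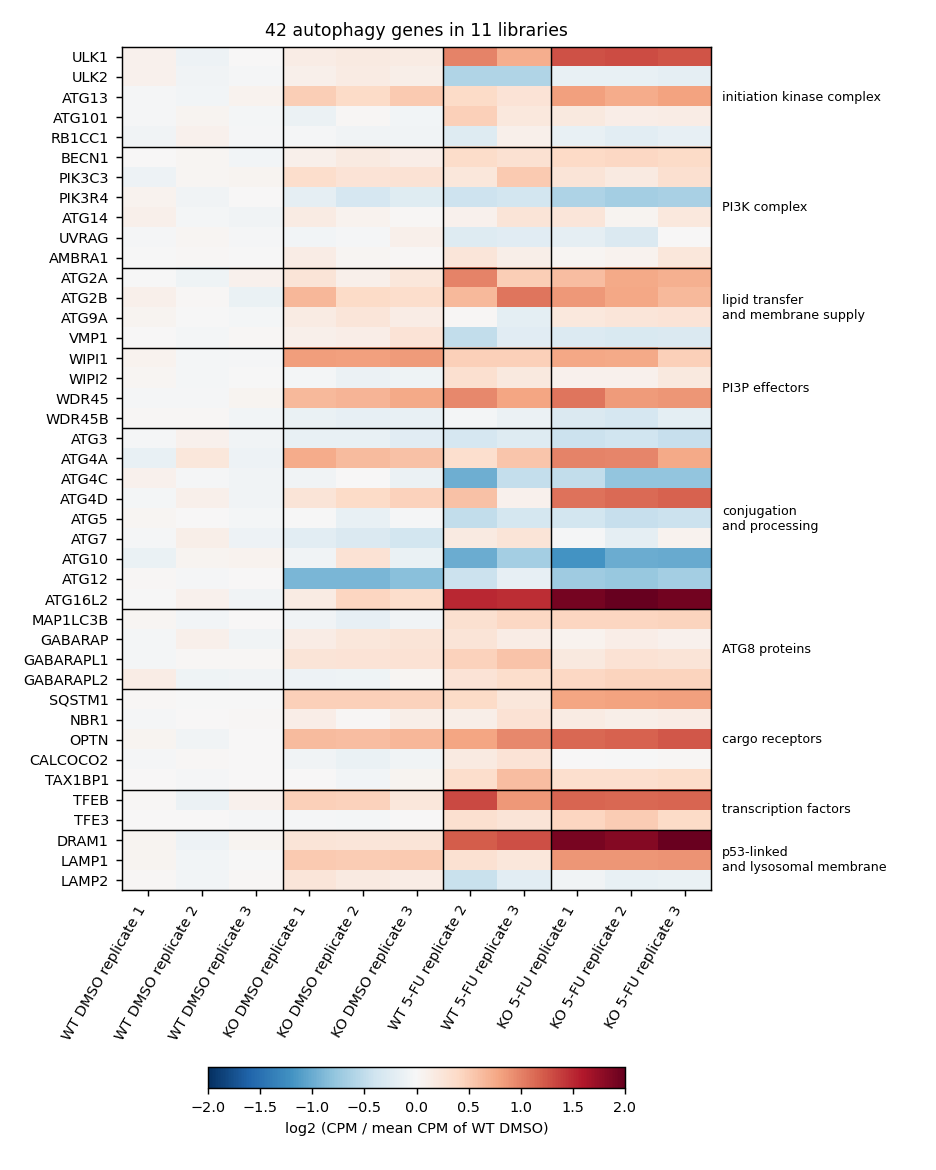
Level of the 42 tested genes (rows, grouped by role) in 11 libraries (columns), as log2 of CPM over the mean CPM of WT DMSO, from blue (lower) to red (higher). ATG16L2 and DRAM1 are the reddest rows under 5-FU, and ATG12 is blue in all 3 KO DMSO libraries.

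Within the ULK1 complex, which receives the signals from mTORC1 and AMPK, the kinase genes moved in opposite directions under 5-FU. ULK1, the main initiating kinase, had 34.2, 30.2 and 32.3 in WT DMSO, 35.6, 36.5 and 36.3 in KO DMSO, 64.0 and 53.6 in WT 5-FU and 78.3, 80.1 and 76.7 in KO 5-FU (CPM). Every 5-FU library lay above every DMSO library, with a log2 fold change of 0.87 ± 0.075, FDR = 5.35e-08 in WT and 1.12 ± 0.068, FDR = 7.23e-10 in KO cells. ULK2, its paralog, had 24.1, 21.5 and 22.4 in WT DMSO, 24.4, 25.4 and 24.7 in KO DMSO, 14.9 and 15.01 in WT 5-FU and 20.4, 20.4 and 20.1 in KO 5-FU (CPM). Here every 5-FU library lay below every DMSO library, with a log2 fold change of -0.60 ± 0.076, FDR = 4.09e-06 in WT cells and -0.29 ± 0.067, FDR = 0.00141 in KO cells. Under 5-FU both kinases were higher in KO than in WT cells, without overlap of the libraries (ULK1 0.41, FDR = 0.000245 and ULK2 0.44, FDR = 0.000174), whereas in DMSO neither difference passed the test (ULK1 0.16, FDR = 0.0697 and ULK2 0.13, FDR = 0.124). The difference between responses was 0.31 for ULK2 (FDR = 0.0311, but up to 0.0843 when single libraries were left out, with the call lost in 6 of 11 fits). For ULK1 it was 0.25 (FDR = 0.0824) and passed with TMM factors (0.31, FDR = 0.0393) and with DESeq2 (0.33, FDR = 0.0168).

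ATG13, a regulatory subunit of the ULK1 complex, was higher in KO cells irrespective of treatment. Its levels were 53.8, 52.4 and 57.2 in WT DMSO, 76.6, 71.2 and 78.5 in KO DMSO, 70.9 and 66.2 in WT 5-FU and 96.3, 91.6 and 94.9 in KO 5-FU (CPM). The KO libraries lay above the WT libraries of the same treatment, by 0.47 ± 0.056, FDR = 4.33e-06 on the log2 scale in DMSO and 0.46 ± 0.061, FDR = 1.4e-05 under 5-FU. 5-FU raised ATG13 in WT (0.33, FDR = 0.000203) and KO cells (0.32, FDR = 8.82e-05), and the interaction was -0.01 with an SE of 0.082. ATG101, which stabilizes ATG13, was higher after 5-FU in WT (0.35, FDR = 0.000717) and KO cells (0.22, FDR = 0.013), the latter at FDR = 0.0607 without KO DMSO replicate 1. Its lower level in KO cells under 5-FU (-0.19, FDR = 0.0471) was lost in 10 of 11 fits without 1 library. RB1CC1, which encodes the scaffold FIP200, passed no test, with log2 fold changes between -0.12 and -0.05.

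The class III PI3-kinase genes showed small changes, none past 1.5-fold. BECN1, the regulatory subunit Beclin 1, was higher after 5-FU in WT (0.34, FDR = 3.27e-05) and KO cells (0.26, FDR = 0.000146), from means of 73.6 and 80.9 CPM to 93.0 and 97.0 CPM. Its higher level in KO DMSO (0.14, FDR = 0.0272) was lost in 4 of 11 fits without 1 library and with DESeq2. PIK3C3, the catalytic subunit VPS34, rose after 5-FU in WT cells (0.38, FDR = 0.00119) and not detectably in KO cells (-0.052, FDR = 0.591), where its level in DMSO was already above that of WT (0.30, FDR = 0.00515). The interaction for PIK3C3 was -0.44 ± 0.12, FDR = 0.0126. PIK3R4, which encodes the subunit VPS15, was lower in KO cells in DMSO (-0.26, FDR = 0.00281) and under 5-FU (-0.27, FDR = 0.00436) and fell after 5-FU in both genotypes (-0.39 and -0.40). Mean levels ran from 52.5 CPM in WT DMSO to 33.4 CPM in KO 5-FU. ATG14, the subunit that directs the complex to autophagy, passed no test, with log2 fold changes between -0.096 and 0.18. UVRAG, its counterpart in the endosomal complex, was lower after 5-FU in WT cells (-0.25, FDR = 0.0352), a call lost without any 1 of 5 WT libraries. AMBRA1, a Beclin 1 regulator, was near the threshold in WT cells after 5-FU (0.18, FDR = 0.0489) and lost it in 9 of 11 such fits.

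Of the genes for lipid transfer and membrane supply, both ATG2 genes rose after 5-FU, VMP1 fell and ATG9A passed neither test of the treatment. ATG2A, a bridge-like lipid transfer protein, had 23.2, 21.9 and 24.5 in WT DMSO, 27.6, 25.0 and 27.1 in KO DMSO, 46.2 and 32.7 in WT 5-FU and 35.5, 39.07 and 37.9 in KO 5-FU (CPM). All 5-FU libraries exceeded all DMSO libraries. The log2 fold change was 0.77 ± 0.11, FDR = 1.75e-05 in WT cells, where the 2 libraries lay far apart, and 0.50 ± 0.10, FDR = 0.000526 in KO cells. ATG2B had 9.85, 9.27 and 8.37 in WT DMSO, 14.5, 12.01 and 11.6 in KO DMSO, 14.4 and 19.3 in WT 5-FU and 16.7, 15.6 and 14.3 in KO 5-FU (CPM). It was higher in KO than in WT cells in DMSO (0.47 ± 0.12, FDR = 0.00434), rose after 5-FU in WT cells (0.88 ± 0.13, FDR = 1.99e-05) and less in KO cells (0.29 ± 0.12, FDR = 0.0388), where the groups overlapped and the call was lost in 4 of 11 fits without 1 library. The interaction of -0.58 ± 0.17, FDR = 0.0217 for ATG2B was lost in 4 of 11 fits without 1 library (FDR up to 0.0931, among them the fit without WT 5-FU replicate 3).

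ATG9A, the lipid scramblase of the ATG9 vesicles and a gene on which the study's experiments centre, had 73.3, 70.6 and 68.7 in WT DMSO, 79.5, 83.6 and 78.7 in KO DMSO, 72.2 and 61.8 in WT 5-FU and 81.9, 84.3 and 86.1 in KO 5-FU (CPM). In DMSO the KO libraries lay above the WT libraries (0.19 ± 0.058, FDR = 0.0159), a call lost without WT DMSO replicate 3 or without KO DMSO replicate 2 (FDR up to 0.0732). Under 5-FU the KO libraries again lay above the WT libraries, by 0.33 ± 0.065, FDR = 0.000608. The change after 5-FU was -0.079, FDR = 0.309 in WT cells and 0.062, FDR = 0.377 in KO cells, and the groups overlapped in both genotypes. The interaction was 0.14 (FDR = 0.251). Without WT 5-FU replicate 2, the WT value was -0.20 and the interaction 0.26, so that the size of both depends on this library. That fit leaves 1 library in WT 5-FU, whose spread is then not observed. In the annotation, 1833 exonic bases of ATG9A are shared with a read-through transcript on the same strand (ENSG00000284820), which was not among the rows tested. VMP1, a scramblase of the endoplasmic reticulum needed for phagophore formation, fell after 5-FU in WT (-0.36, FDR = 0.000422) and KO cells (-0.46, FDR = 1.12e-05), from means of 227 and 255 CPM to 177 and 185 CPM. Its higher level in KO DMSO (0.17, FDR = 0.0375) was lost in 5 of 11 fits without 1 library and with TMM factors or DESeq2.

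The WIPI genes held both interactions past 1.5-fold. WIPI1, a PI3P-binding protein of the phagophore, had 19.9, 18.5 and 18.8 in WT DMSO, 34.2, 33.6 and 34.6 in KO DMSO, 26.6 and 26.5 in WT 5-FU and 32.7, 32.4 and 26.7 in KO 5-FU (CPM). In DMSO every KO library lay above every WT library, a 1.79-fold higher level (log2 0.84 ± 0.078, FDR = 2.87e-07). After 5-FU the level rose in WT cells (0.48 ± 0.086, FDR = 0.00017) and was -0.16 ± 0.076, FDR = 0.0875 in KO cells. The interaction for WIPI1 was -0.63 ± 0.12, FDR = 0.000895. The remaining KO to WT difference under 5-FU was 0.21, FDR = 0.0547 and passed with TMM factors (0.25, FDR = 0.0227) and DESeq2 (0.26, FDR = 0.0152). ARSG, on the opposite strand, shares 829 exonic bases with WIPI1, and its log2 fold changes were 1.08 (KO versus WT, DMSO), 0.32 (KO versus WT, 5-FU) and -0.76 (interaction), at mean levels of 14.96, 31.7, 11.4 and 14.3 CPM in WT DMSO, KO DMSO, WT 5-FU and KO 5-FU. Whether reads of ARSG were counted for WIPI1 was not tested, since the methods do not state that counting used the strand.

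WDR45, which encodes WIPI4, the partner of ATG2, showed the same order of levels in DMSO. Its levels were 20.3, 20.3 and 21.4 in WT DMSO, 32.3, 33.0 and 34.8 in KO DMSO, 40.0 and 35.6 in WT 5-FU and 43.4, 37.2 and 38.0 in KO 5-FU (CPM). The KO DMSO libraries exceeded the WT DMSO libraries 1.62-fold (log2 0.69 ± 0.077, FDR = 2.06e-06), whereas under 5-FU the genotypes overlapped (0.063, FDR = 0.547). After 5-FU WDR45 rose by 0.87 ± 0.083, FDR = 1.61e-07 in WT and by 0.24 ± 0.074, FDR = 0.00967 in KO cells, the latter at FDR = 0.0752 without KO 5-FU replicate 1. The interaction for WDR45 was -0.63 ± 0.11, FDR = 0.000722. In the annotation, WDR45 shares 675 exonic bases with ENSG00000288053, a protein-coding gene on the same strand that was not tested under this name. The part of these shared bases in the values was not tested. The other members of this family changed little. WIPI2, which recruits ATG16L1, was higher after 5-FU in WT (0.26, FDR = 0.000961) and KO cells (0.21, FDR = 0.00249) and did not differ detectably between genotypes. WDR45B, which encodes WIPI3, was lower in KO cells in DMSO (-0.15, FDR = 0.0209) and under 5-FU (-0.19, FDR = 0.00639), and the DMSO call was lost in 4 of 11 fits without 1 library. It was also lower after 5-FU in KO cells (-0.13, FDR = 0.0323), a call lost in 5 of 11 such fits and with TMM factors or DESeq2.

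Among the genes of the 2 conjugation systems and the ATG4 proteases, ATG12 stood out. ATG12, the ubiquitin-like protein that is coupled to ATG5, had 234, 228 and 232 in WT DMSO, 122, 123 and 130.2 in KO DMSO, 172 and 207 in WT 5-FU and 142, 137 and 145 in KO 5-FU (CPM). Every KO library lay below every WT library, with a log2 fold change of -0.89 ± 0.06, FDR = 7.32e-09 in DMSO, where the WT level was 1.85 times the KO level, and of -0.42 ± 0.066, FDR = 6.92e-05 under 5-FU. ATG12 fell after 5-FU in WT cells (-0.29, FDR = 0.00137) and rose slightly in KO cells (0.18, FDR = 0.0184, lost in 4 of 11 fits without 1 library), with an interaction of 0.46 ± 0.09, FDR = 0.0014. AP3S1, which shares 185 exonic bases with ATG12 on the opposite strand, was lower in KO cells as well (log2 -0.75 in DMSO and -0.46 under 5-FU, with 256.1 CPM in KO and 431.3 CPM in WT DMSO), while the median of the 20 genes nearest to ATG12 was 0.10 in DMSO. ATG5, its partner, had 62.3, 61.4 and 59.2 in WT DMSO, 60.5, 55.1 and 59.8 in KO DMSO, 43.5 and 47.7 in WT 5-FU and 47.4, 44.4 and 45.4 in KO 5-FU (CPM). The genotypes overlapped under both treatments (-0.059, FDR = 0.435 and 0.0064, FDR = 0.946). All 5-FU libraries lay below all DMSO libraries, with log2 fold changes of -0.42 ± 0.066, FDR = 4.14e-05 in WT and -0.35 ± 0.06, FDR = 7.87e-05 in KO cells.

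ATG16L2, a paralog of the ATG16L1 subunit of this conjugate, had the highest log2 fold change after 5-FU in WT cells among the 42 genes. It had 16.6, 17.7 and 15.8 in WT DMSO, 18.8, 22.5 and 21.4 in KO DMSO, 47.7 and 46.4 in WT 5-FU and 63.0, 70.0 and 63.4 in KO 5-FU (CPM). WT cells rose 2.82-fold (log2 1.498 ± 0.084, FDR = 2.66e-10) and KO cells 3.14-fold (log2 1.65 ± 0.077, FDR = 2.34e-11). KO libraries lay above WT libraries in DMSO (0.33, FDR = 0.00357) and under 5-FU (0.48, FDR = 0.000144). FCHSD2, which shares 680 exonic bases with ATG16L2 on the opposite strand, had log2 fold changes after 5-FU of 0.59 in WT and 1.06 in KO cells.

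The E2-like enzymes went the other way. ATG10, which couples ATG12 to ATG5, had 8.30, 9.44 and 9.56 in WT DMSO, 8.69, 11.1 and 8.29 in KO DMSO, 4.56 and 5.66 in WT 5-FU and 3.96, 4.57 and 4.51 in KO 5-FU (CPM). All 5-FU libraries lay below all DMSO libraries, with log2 fold changes of -0.84 ± 0.14, FDR = 9.52e-05 in WT and -1.10 ± 0.13, FDR = 2.66e-06 in KO cells. The genotypes overlapped under both treatments. RPS23, a ribosomal protein gene at 744 CPM in WT DMSO that shares 374 exonic bases with ATG10 on the opposite strand, had log2 fold changes of -0.22 and -0.64 after 5-FU. ATG3, which transfers ATG8 proteins to lipid, fell after 5-FU in WT (-0.30, FDR = 0.000674) and KO cells (-0.25, FDR = 0.00113), and its lower level in KO DMSO (-0.17, FDR = 0.0193) was lost in 2 of 11 fits without 1 library. ATG7, the E1-like enzyme of both systems, was lower in KO cells in DMSO (-0.28, FDR = 0.00816) and under 5-FU (-0.26, FDR = 0.018), whereas 5-FU raised it in WT (0.22, FDR = 0.0327) and KO cells (0.24, FDR = 0.0148). The last 3 of these ATG7 calls were lost in 2, 3 and 2 of the 11 fits without 1 library. DESeq2 also ended the ATG7 calls under 5-FU between genotypes (-0.21, FDR = 0.0579) and after 5-FU in WT cells (0.20, FDR = 0.0633). VGLL4, which shares 1597 exonic bases with ATG7 on the opposite strand, had log2 fold changes after 5-FU of 0.42 in WT and 0.36 in KO cells. Its KO to WT values were 0.086 in DMSO and 0.026 under 5-FU. Whether its reads were counted for ATG7 was not tested.

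Of the ATG4 proteases, which prime and recycle ATG8 proteins, ATG4A and ATG4D were higher in KO cells and ATG4C fell after 5-FU. ATG4A had 7.51, 9.71 and 7.70 in WT DMSO, 14.0, 12.9 and 12.5 in KO DMSO, 10.5 and 12.2 in WT 5-FU and 16.6, 16.3 and 14.0 in KO 5-FU (CPM). KO libraries lay above WT libraries, by 0.67 ± 0.11, FDR = 0.000119 in DMSO and 0.47 ± 0.12, FDR = 0.00325 under 5-FU. It rose after 5-FU in WT cells (0.45, FDR = 0.00393) and close to the threshold in KO cells (0.26, FDR = 0.0443, lost in 4 of 11 fits without 1 library). ATG4D had 22.9, 25.2 and 22.5 in WT DMSO, 28.1, 30.8 and 32.3 in KO DMSO, 35.2 and 25.1 in WT 5-FU and 50.02, 51.8 and 53.4 in KO 5-FU (CPM). In KO 5-FU all 3 libraries lay far above the others, 0.77 ± 0.11, FDR = 2.9e-05 over WT 5-FU and 0.77 ± 0.099, FDR = 5.12e-06 over KO DMSO. In WT cells the rise after 5-FU (0.36, FDR = 0.0101) came with an overlap of the groups. It was 0.09 without WT 5-FU replicate 2, a fit that leaves 1 library in that state. The interaction for ATG4D was 0.40, FDR = 0.0592, and it passed with TMM factors (0.46, FDR = 0.0332) and DESeq2 (0.48, FDR = 0.00848). KRI1, which shares 334 exonic bases with ATG4D on the opposite strand, had log2 fold changes after 5-FU of 0.296 in WT and 0.51 in KO cells. Its KO to WT values were 0.05 in DMSO and 0.26 under 5-FU. Whether its reads were counted for ATG4D was not tested.

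ATG4C had 17.8, 16.5 and 15.8 in WT DMSO, 15.9, 16.7 and 15.4 in KO DMSO, 8.5 and 11.9 in WT 5-FU and 11.9, 9.70 and 9.61 in KO 5-FU (CPM). All 5-FU libraries lay below all DMSO libraries, with log2 fold changes of -0.72 ± 0.13, FDR = 0.000139 in WT and -0.62 ± 0.12, FDR = 0.000217 in KO cells. The KO and WT libraries overlapped under both treatments.

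The ATG8 genes rose after 5-FU in WT cells, all 4 of those tested (all genes 31.9%), and in KO cells 2 of the 4 (all genes 26.6%). MAP1LC3B, the LC3 protein followed in the study's flux assays, had 85.5, 80.6 and 84.1 in WT DMSO, 79.1, 74.8 and 79.7 in KO DMSO, 105 and 111 in WT 5-FU and 113, 113 and 114 in KO 5-FU (CPM). It rose after 5-FU in WT (0.37 ± 0.052, FDR = 1.37e-05) and KO cells (0.54 ± 0.048, FDR = 7.17e-08). The genotypes did not pass the test in DMSO (-0.099, FDR = 0.105) or under 5-FU (0.066, FDR = 0.315). The interaction for MAP1LC3B was 0.16, FDR = 0.0995, and with TMM factors 0.22 (FDR = 0.0367) and with DESeq2 0.24 (FDR = 0.0167). GABARAPL2, of the GABARAP branch, rose as well, by 0.31, FDR = 0.00131 in WT and 0.48, FDR = 8.06e-06 in KO cells.

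GABARAPL1 and GABARAP, of the same branch, rose after 5-FU in WT cells without a call in KO cells. GABARAPL1 had 39.5, 41.2 and 41.3 in WT DMSO, 48.6, 49.1 and 49.5 in KO DMSO, 55.8 and 60.3 in WT 5-FU and 46.5, 49.7 and 48.4 in KO 5-FU (CPM). It is given by library because its sign turned, a choice made after its values were seen. In DMSO every KO library lay above every WT library (0.27 ± 0.056, FDR = 0.000948), and under 5-FU every KO library lay below (-0.27 ± 0.061, FDR = 0.00177). Its rise after 5-FU in WT cells (0.51, FDR = 2.29e-06) had no counterpart in KO cells (-0.026, FDR = 0.713). The interaction for GABARAPL1 was -0.54 ± 0.083, FDR = 0.000233. GABARAP was higher in KO DMSO (0.21, FDR = 0.00339) and had an interaction of -0.33, FDR = 0.00589, with 117 and 136 CPM in WT and KO DMSO and 136 and 125 CPM in WT and KO 5-FU (means), and -0.12, FDR = 0.106 between genotypes under 5-FU. It shares 691 annotated exonic bases on the same strand with ENSG00000262526, and the part of these bases in its values was not tested.

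Cargo receptors were higher after 5-FU in all 5 cases in WT cells (all genes 31.9%) and in 3 of 5 in KO cells (all genes 26.6%). Of their 5 interactions only 1 passed the test, that of OPTN. SQSTM1, which encodes p62, had 319.7, 313 and 313 in WT DMSO, 441, 439 and 434 in KO DMSO, 411 and 369 in WT 5-FU and 543, 549.9 and 556 in KO 5-FU (CPM). No libraries of different states overlapped. KO cells had 1.39-fold the WT level in DMSO (log2 0.47 ± 0.048, FDR = 7.03e-07) and 1.41-fold under 5-FU (log2 0.49 ± 0.054, FDR = 1.71e-06). 5-FU raised SQSTM1 by 0.31 ± 0.053, FDR = 0.000103 in WT and 0.33 ± 0.048, FDR = 1.76e-05 in KO cells, so that the interaction was 0.021 with an SE of 0.071. MRNIP, which shares 1582 exonic bases with SQSTM1 on the opposite strand, stood at 26.9 to 47.2 CPM over the states, far below SQSTM1.

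OPTN, the receptor optineurin, had 41.5, 38.1 and 40.0 in WT DMSO, 61.7, 61.0 and 63.1 in KO DMSO, 69.1 and 77.6 in WT 5-FU and 88.6, 90.6 and 93.9 in KO 5-FU (CPM). Here, too, the states did not overlap. It was 1.55-fold higher in KO DMSO than in WT DMSO (log2 0.63 ± 0.058, FDR = 2.22e-07), and the difference was 0.31 ± 0.062, FDR = 0.000554 under 5-FU. 5-FU raised OPTN by 0.88 ± 0.062, FDR = 5.17e-09 in WT and 0.56 ± 0.056, FDR = 3.06e-07 in KO cells, with an interaction of -0.32 ± 0.084, FDR = 0.0107. TAX1BP1, a receptor related to NDP52, rose after 5-FU in WT (0.49, FDR = 5.79e-06) and KO cells (0.34, FDR = 7.98e-05). CALCOCO2, which encodes NDP52, and NBR1 rose in WT cells (0.23, FDR = 0.000777 and 0.20, FDR = 0.00523), with 0.097, FDR = 0.0718 and 0.048, FDR = 0.427 in KO cells. The rise of CALCOCO2 in KO cells passed with TMM factors (0.14, FDR = 0.0144) and DESeq2 (0.15, FDR = 0.00774), and the interactions of CALCOCO2 (-0.13, FDR = 0.158) and NBR1 (-0.15, FDR = 0.145) did not pass. CALCOCO2 was lower in KO than WT cells under 5-FU (-0.22, FDR = 0.00129).

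TFEB and TFE3, transcription factors of lysosomal and autophagy genes, rose after 5-FU. TFEB had 5.70, 5.16 and 5.99 in WT DMSO, 7.85, 7.75 and 6.55 in KO DMSO, 14.1 and 10.2 in WT 5-FU and 12.6, 12.5 and 12.6 in KO 5-FU (CPM). It rose 2.17-fold in WT cells (log2 1.12 ± 0.13, FDR = 1.68e-06) and 1.70-fold in KO cells (log2 0.77 ± 0.12, FDR = 3.31e-05). Its 2 WT 5-FU libraries enclosed the KO 5-FU libraries. In DMSO the KO libraries lay above the WT libraries (0.38 ± 0.13, FDR = 0.0214), a call lost without WT DMSO replicate 2 and without KO DMSO replicates 1 or 2 (FDR up to 0.0751). TFE3 rose by 0.29, FDR = 0.0013 in WT and 0.46, FDR = 5.98e-06 in KO cells.

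DRAM1, a p53-induced lysosomal membrane protein, and LAMP1 and LAMP2, the main glycoproteins of that membrane, were all 3 higher in KO than in WT cells under both treatments. Over all genes, 24.5% were higher in KO cells in DMSO and 21.6% under 5-FU. DRAM1 had 34.5, 31.1 and 34.6 in WT DMSO, 40.1, 39.3 and 39.8 in KO DMSO, 77.4 and 81.2 in WT 5-FU and 125, 118 and 132 in KO 5-FU (CPM). No states overlapped. It rose 2.37-fold in WT (log2 1.25 ± 0.063, FDR = 8.34e-11) and 3.15-fold in KO cells (log2 1.65 ± 0.058, FDR = 8.21e-13), the highest value of the 42 genes there, with an interaction of 0.41 ± 0.086, FDR = 0.00259. The KO to WT difference of DRAM1 was 0.25 ± 0.06, FDR = 0.003 in DMSO and 0.66 ± 0.062, FDR = 3.72e-07 under 5-FU. LAMP1 had 254, 236 and 245 in WT DMSO, 351, 348 and 353 in KO DMSO, 304 and 287 in WT 5-FU and 454, 452 and 457 in KO 5-FU (CPM). The states did not overlap. KO cells exceeded WT cells 1.43-fold in DMSO (log2 0.52 ± 0.046, FDR = 1.79e-07) and 1.54-fold under 5-FU (log2 0.62 ± 0.053, FDR = 1.06e-07). 5-FU raised LAMP1 by 0.27, FDR = 0.000257 in WT and 0.37, FDR = 3.33e-06 in KO cells. LAMP2 was higher in KO cells (0.19, FDR = 0.0136 in DMSO and 0.21, FDR = 0.0143 under 5-FU, each lost in 2 of 11 fits without 1 library) but fell after 5-FU in WT (-0.33, FDR = 0.000354) and KO cells (-0.31, FDR = 0.000212).

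**Figure D3:**
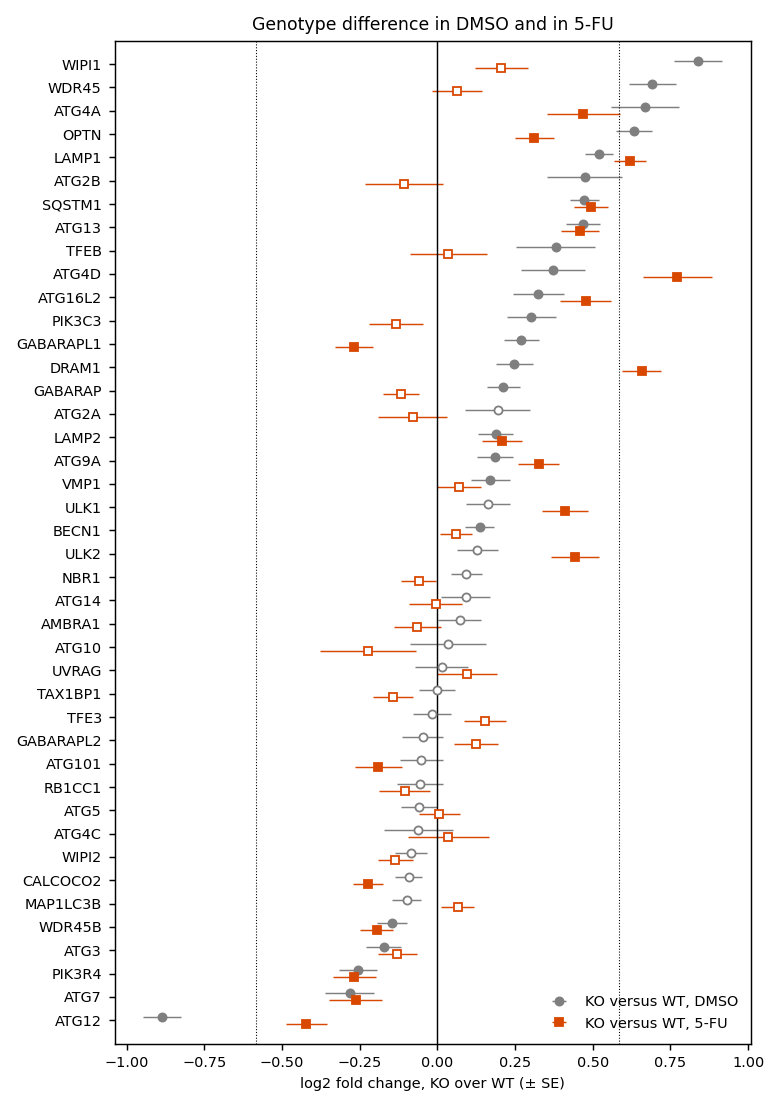
log2 fold change of KO over WT cells (± SE) for the 42 genes in DMSO (gray circles) and under 5-FU (orange squares), in order of the DMSO value. Filled symbols passed FDR < 0.05, dotted lines mark a fold of 1.5, and WIPI1 (0.84) and ATG12 (-0.89) are the outermost values in DMSO.

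**Figure D4:**
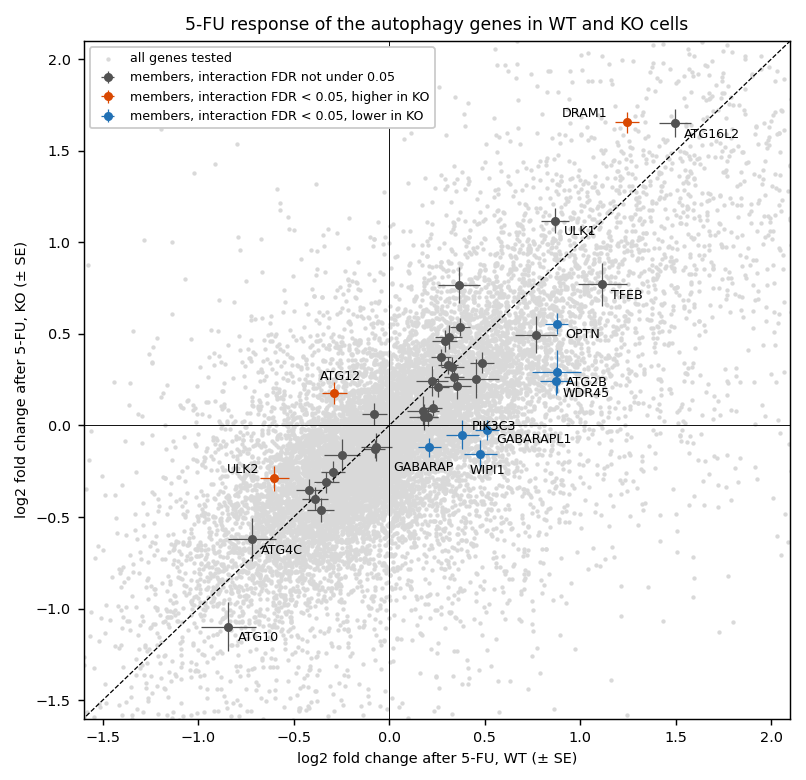
log2 fold change after 5-FU in WT (x) and KO cells (y), ± SE, for the 42 genes and, in light gray, all genes tested within the axis range, with the dashed line where both responses are equal. The 7 genes in blue lie below the line, among them WIPI1 and WDR45, and the 3 in orange above it (interaction FDR < 0.05).

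The genes with and without a seed match of miR-34a in their 3' UTR were compared as a description. In DMSO, 3 of the 8 genes with a match were higher in KO cells and 0 lower, with a median log2 fold change of 0.18, against 16 higher and 5 lower of the 34 others with a median of 0.11. Under 5-FU, 2 were higher and 1 lower with a median of -0.0365, against 10 and 6 with a median of 0.062. The 3 genes with an 8mer site shown above, WIPI2, ATG5 and CALCOCO2, had KO to WT values of -0.085, -0.059 and -0.092 in DMSO and -0.14, 0.0064 and -0.22 under 5-FU, of which only that of CALCOCO2 under 5-FU passed the test. Of the 5 genes with a 7mer-m8 site, ATG13, ATG2B and TFEB were called higher in DMSO, and ATG13 and ULK1 under 5-FU. Over all tested genes with such a 3' UTR, 663 were higher and 513 lower in DMSO of 2283 with a match, against 2641 and 2742 of 10688 without. Under 5-FU the counts were 604 and 642, against 2511 and 3257. The medians over these genes with and without a match were 0.034 and -0.0047 in DMSO and -0.0063 and -0.045 under 5-FU.

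Promoter windows of 37 of the 43 genes were searched for the E-box bound by TFEB and TFE3, CACGTG (its own reverse complement). The windows held the 250 bases before the RefSeq start and further bases after it. The E-box was present for LAMP1, ATG14 and ATG3, in 6.25% of the 48 windows of the 37 genes against 7.26% of 35116 windows of all genes. The following 30-base stretches (GRCh38.p14) are shown for these 3 genes, with each E-box in capitals.
LAMP1, chr13:113297076-113297105, plus strand: gggtCACGTGccgctgcgggtCACGTGtcg
ATG14, chr14:55411834-55411863, minus strand: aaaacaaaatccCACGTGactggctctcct
ATG3, chr3:112561963-112561992, minus strand: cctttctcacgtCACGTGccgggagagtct
The LAMP1 window held 5 E-boxes in the bases before the start, starting 192, 176, 159, 142 and 28 bases before it. It was the only 1 of the 35116 windows with at least 5 in these bases. LAMP1 rose after 5-FU and was higher in KO cells, ATG14 passed no test and ATG3 fell after 5-FU. The forkhead letters TAAACA, read on both strands, were present in windows of AMBRA1, WIPI2, WDR45, GABARAPL1 and CALCOCO2, in 12.5% of the windows against 12.3% of all windows. They lay wholly before the start for AMBRA1, GABARAPL1 and CALCOCO2, and not for WIPI2 and WDR45. These matches are descriptions of the letters in the windows.

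Genomic neighbors were inspected for the genes that differed between genotypes past 1.5-fold. In GENCODE release 44 (GRCh38) these are WIPI1 (chr17:68420948-68457513), WDR45 (chrX:49074433-49101170), ATG4A (chrX:108091668-108154671), OPTN (chr10:13099449-13138308), ATG12 (chr5:115828200-115841837), ATG4D (chr19:10543895-10553418), DRAM1 (chr12:101877580-102012130) and LAMP1 (chr13:113297239-113323672). The median log2 fold change (KO versus WT, DMSO) of the 20 nearest tested genes was 0.047 for WIPI1, 0.17 for WDR45, 0.24 for ATG4A and -0.18 for OPTN. Under 5-FU it was 0.060 for ATG4D, 0.052 for DRAM1 and 0.12 for LAMP1. By contrast, the early autophagy genes ATG4B (1.11 in DMSO and 1.11 under 5-FU) and ATG16L1 (0.80 and 0.76), which are not among the 43 genes, lie on the long arm of chromosome 2 among genes with medians of 0.88 and 1.02 (14 neighbors of ATG4B) and 1.08 and 1.02 (20 neighbors of ATG16L1), so that the gene and its neighbors cannot be told apart there.

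Other genes of the pathway, in lists written with earlier results of these data known, gave further counts. Of 15 tested ATG genes and early regulators outside the 43, 6 were higher and 2 lower in KO than in WT cells in DMSO (all genes 24.5% and 21.9%), and 5 and 2 under 5-FU (all genes 21.6% and 28%). Among the higher genes were ATG4B and ATG16L1, which cannot be told apart from their neighbors as described above. ATG9B, the paralog of ATG9A, rose after 5-FU by 2.73 ± 0.17, FDR = 8.04e-10 in WT and 1.67 ± 0.16, FDR = 1.15e-07 in KO cells, with an interaction of -1.06 ± 0.23, FDR = 0.00378. ZFYVE1, which encodes the omegasome protein DFCP1, rose by 1.33 and 1.28. Of 31 genes of mTORC1, AMPK and amino acid sensing, 13 were higher and 10 lower after 5-FU in WT cells and 12 and 11 in KO cells, against 31.9% and 28.3% and then 26.6% and 33.8% of all genes. The sestrin genes SESN2 (2.18 and 1.84) and SESN1 (1.90 and 1.92), p53-induced inhibitors of mTORC1, and PRKAB1, a subunit of AMPK (1.21 and 1.34), were among those that rose, and PRKAG1, another AMPK subunit, fell by 1.17 in WT and by 1.003 in KO cells.

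Downstream of the autophagosome, 15 of 27 lysosomal hydrolase and membrane genes were higher and 2 lower in KO than in WT cells in DMSO (all genes 24.5% and 21.9%), and 13 and 3 under 5-FU (all genes 21.6% and 28%). Their medians were 0.24 and 0.14, against 0.026 and -0.046 over all genes. NAGLU (0.88 ± 0.082, FDR = 3.02e-07) and SGSH (0.67 ± 0.087, FDR = 1.11e-05), which encode enzymes that degrade heparan sulfate, were among those past 1.5-fold in DMSO, and MCOLN1, a lysosomal cation channel, under 5-FU (0.71 ± 0.12, FDR = 0.000138). Of 18 V-ATPase genes, whose products acidify the lysosome, 13 were higher and 1 lower after 5-FU in WT cells (all genes 31.9% and 28.3%) and 9 and 2 in KO cells (all genes 26.6% and 33.8%). Of 16 fusion genes, 8 were higher and 1 lower after 5-FU in WT cells and 6 and 5 in KO cells, where over all genes 5143 and 4569 and then 4286 and 5451 were. The SNARE gene VAMP8 rose by 0.96 and 0.68. Of 20 organelle receptor and mitophagy genes, 7 were higher and 4 lower in KO cells in DMSO (all genes 24.5% and 21.9%) and 9 and 5 under 5-FU (all genes 21.6% and 28%), among them the ER-phagy receptors RETREG1 (1.26 and 1.30) and CCPG1 (0.997 and 0.82). Of 12 further transcription factor genes, 2 were higher and 2 lower in DMSO (all genes 24.5% and 21.9%), and 4 and 3 under 5-FU (all genes 21.6% and 28%). MITF, of the family of TFEB and TFE3, was lower in KO cells in DMSO (FDR = 2.44e-06) and under 5-FU (FDR = 0.00012), at few counts. It had 43, 32 and 39 counts in WT DMSO, 0, 1 and 0 in KO DMSO, 50 and 27 in WT 5-FU and 2, 1 and 6 in KO 5-FU. TFEC, of the same family, had 1 to 7 counts in each DMSO library and 45 to 67 in each 5-FU library and rose in WT (FDR = 2.51e-07) and KO cells (FDR = 2.51e-07).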

How the data were processed

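RNA from HCT116 cells (4 states, 12 libraries by the labels, 48 h of treatment) was sequenced from random-primed libraries, and the authors mapped the reads to GRCh38 with ENSEMBL annotation in CLC Genomics Workbench. The deposited files hold raw counts per gene, 1 file per library. The ENSEMBL release and the use of the strand in counting are not given in the sources used here. The members and lists were chosen with earlier results of these data known.

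From 11 libraries, the 16123 genes that reached 20 counts in any library were fitted in edgeR 4.0.16 (R 4.3.3; glmQLFit and glmQLFTest, two-sided, upper-quartile factors, 1 mean per state), adjusting p after Benjamini-Hochberg across this table and calling at FDR < 0.05. Expression is given as CPM. Depth was 22831415 to 39064210 counts per library. Each gene past 1.5-fold in at least 1 comparison was given by library, as were ATG9A, SQSTM1, ULK1, ULK2, ATG13, ATG5 and MAP1LC3B. Of other lists at most 4 genes past 1.5-fold were named for each comparison described, largest change first. Exon lengths, 3' UTRs and overlaps are from GENCODE release 44, promoter windows and miRNAs from RefSeq (GRCh38.p14). The procedure was tested on simulated data. Alternatives were TMM factors, DESeq2 1.42.0, no filter on low counts, 20 counts in every library, a replicate block, RUVg with 1 factor, the identical library kept, a fold over 1.5 and leaving out each library. The block by column header numbers and the list of calls that change between tools were added after seeing the data.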

Additional observations from a re-analysis of the deposited data

Results flagged for a closer look

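The difference between the 5-FU responses was past 1.5-fold for WIPI1 and WDR45, by a test of the interaction itself in edgeR. For WIPI1 the response in KO cells minus that in WT cells was -0.632 on the log2 scale (FDR = 0.000895), and for WDR45 it was -0.629 (FDR = 0.000722). Both calls were kept in each of the 11 fits without 1 library. The overlap of WIPI1 with ARSG stands beside the first value. The same-strand overlap of WDR45 with ENSG00000288053 (675 exonic bases) stands beside the second. The part of these shared bases in the 2 values was not tested.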

How the results depend on the processing

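No call of the 42 genes changed sign when any 1 library was left out, and 17 of 24 calls (KO versus WT, DMSO), 16 of 19 (KO versus WT, 5-FU), 34 of 38 (5-FU versus DMSO, WT), 24 of 31 (5-FU versus DMSO, KO) and 8 of 10 (interaction) were kept in all 11 such fits. Leaving out each library gave between 15 and 22 higher and 3 and 7 lower genes (KO versus WT, DMSO), 11 and 13 higher and 5 and 11 lower (KO versus WT, 5-FU), 26 and 28 higher and 9 and 10 lower (5-FU versus DMSO, WT), 18 and 23 higher and 8 and 11 lower (5-FU versus DMSO, KO), and 2 and 6 positive and 6 and 12 negative interactions. The 11 lower genes and the 6 and 12 interactions came without WT 5-FU replicate 2, and the 3 lower genes without WT DMSO replicate 2 or KO DMSO replicate 3. A fit without either WT 5-FU library leaves a single library in that state, so that its spread is not observed and the calls rest on the other states. With a fold over 1.5 required, 4 and 1, 3 and 0, 8 and 3, 5 and 2, and 0 and 2 genes were higher and lower in these comparisons, in the same order. With TMM factors 6 and with DESeq2 7 interactions were positive. With the identical library kept as WT 5-FU replicate 1, 7 genes were higher and 1 lower in KO DMSO and 3 lower in KO 5-FU, and 0 were higher or lower in WT cells after 5-FU and 0 in the interaction (25 and 6 of 42 at an unadjusted edgeR p under 0.05), since WT 5-FU then holds a DMSO library. With 1 RUVg factor, of whose variance 96.9% lay between treatments, the counts were 1 and 0, 7 and 2, 0 and 0, 0 and 0, and 1 and 4, with 9 and 9 of 42 genes at an unadjusted p under 0.05 for 5-FU in WT and KO cells. In this fit the sign after 5-FU turned, at FDR of at least 0.263, for ULK1 (-1.96 in WT and -1.42 in KO cells), ATG13 (-0.56 and -0.48), ATG4C (3.08 and 2.79), ATG5 (1.39 and 1.27), SQSTM1 (-0.71 and -0.58) and TFEB (-3.31 and -3.19). It also turned for ATG2A (-3.84), WDR45 (-0.70) and ATG10 (0.086) in WT cells, for ATG4D (-1.94) in KO cells and for ATG9A in KO versus WT, DMSO (-0.11).

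Same-numbered libraries of different states did not deviate together (15 pairs, r from -0.0914 to 0.0782), and r was -0.15 to 0.15 for 30 pairs with different numbers. These values cannot show that the samples were unpaired. Deviations are taken from the mean of each state, so that the 2 WT 5-FU libraries deviate in exactly opposite ways by construction. The r of -0.15 and 0.15 are such a mirrored pair, both with KO DMSO replicate 1. The numbers are also those of the labels, which differ from those of the column headers for WT 5-FU. With the replicate block the counts were 19 and 5, 12 and 6, 28 and 10, 21 and 10, and 3 and 7, in the order above. It ended the calls of ATG101 (KO versus WT, 5-FU), AMBRA1 (5-FU, WT), ATG4A (5-FU, KO; 0.25, FDR = 0.053) and the ULK2 interaction (0.30, FDR = 0.0547, and 0.32 with the block by column header numbers), and added ATG14 (5-FU, WT), GABARAP (5-FU, KO) and the ATG4D interaction. The ULK2 interaction was also lost without a filter on low counts (0.34). At this depth 42 of the 43 genes reached the count minimum, and 2 libraries limit the precision in WT 5-FU.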

Other observations

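Among further transcription factor genes of autophagy, E2F1 had an interaction of 1.10 ± 0.12, FDR = 1.26e-05 and ATF4, the factor of the amino acid response, one of -0.74 ± 0.076, FDR = 5.02e-06. In the fusion list, the negative interactions included TECPR1, a tether of autophagosomes and lysosomes (-0.73 ± 0.11, FDR = 0.000193), and the SNARE gene STX7 (-0.68 ± 0.094, FDR = 8.66e-05). Of the mTORC1 and AMPK list, 2 interactions were positive and 7 negative of 31 genes (all genes 10.1% and 16%). SESN3, of the sestrin family, and TSC1, of the complex that inhibits mTORC1, were higher in KO than in WT cells in DMSO (0.95 ± 0.088, FDR = 2.73e-07 and 0.82 ± 0.058, FDR = 1.36e-08). Genomic neighbors of SESN3 and TSC1 were not inspected, so whether the genes around them shifted alike was not tested. In the organelle list, BNIP3, a mitophagy receptor, was lower in KO DMSO than in WT DMSO (-0.83 ± 0.074, FDR = 1.56e-07), and CALCOCO1, an ER-phagy receptor, rose after 5-FU in WT (1.17 ± 0.07, FDR = 5.46e-10) and KO cells (1.22 ± 0.063, FDR = 9.07e-11).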
